A study of Homo sapiens with 4 samples.

Results

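The genes described here are 7 pioneer factors and coregulators through which the androgen receptor and other nuclear receptors act on DNA: FOXA1, GATA2, GRHL2, NCOA1, NCOA2, NCOA3 and NCOR1. They were taken by exact symbol from the 19205 genes of the expression table, and each matched 1 row. They were measured by RNA-seq of polyadenylated RNA in LNCaP, an established human prostate cancer cell line that depends on androgen signalling. All cells grew in RPMI-1640 with 10% fetal bovine serum and went through lentiviral infection and puromycin selection. A pair of libraries came from cells with the empty vector (EV) and another pair from cells made to overexpress HOXD13 (OE), a homeobox transcription factor. The sources used here do not give the vector's promoter or say whether each line was a clone or a pool.

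A pioneer factor binds DNA that is still packed in nucleosomes and opens it for other factors. FOXA1, a forkhead protein, and GATA2, a zinc finger protein, do this at androgen receptor enhancers in prostate epithelium, and GRHL2, a grainyhead protein, does so at enhancers of epithelial genes. Once bound, a hormone-loaded receptor recruits p160 coactivators, encoded by NCOA1 (SRC-1), NCOA2 (TIF2) and NCOA3 (SRC-3, also called AIB1), which bring in histone acetyltransferases. The corepressor NCOR1 works the other way, by tying receptors to histone deacetylase 3.

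HOXD13 RNA was at 0 expected counts in EV libraries 1 and 2 and at 88 and 104 expected counts in OE libraries 1 and 2, which matches the labels. In FPKM (fragments scaled to transcript length and to library size) OE libraries 1 and 2 were at 4.41 and 5.33, a modest level. Library totals ran from 6881110 to 8530487 expected counts. Replicate libraries were not copies of each other, since chi-square per degree of freedom was 1.57 for the EV pair and 1.76 for the OE pair, where sampling noise alone gives about 1. Nothing in the labels says that replicates were separate cultures, so the p-values rest on a spread between libraries that may be technical. Summed FPKM of 8 luminal epithelium markers was 3294 to 3333 in EV and 4541 to 4653 in OE, with 5 called higher and 1 lower. The sum of 9 fibroblast markers was 63.1 to 66.7 FPKM in EV and 75.5 to 79.1 in OE, with 2 of 3 tested called higher and COL1A2, DCN and PDGFRA at 0. Basal markers summed to 3.02 to 3.31 and 5.36 to 5.85 FPKM (6 markers, 2 of 2 tested called higher, with KRT5, KRT15 and TP63 at 0), leukocyte markers to 37.4 to 41.3 and 42.3 to 43.8 (7 markers, 0 of 3 tested called, with CD3E among those at 0), and endothelial markers to 3.44 to 3.63 and 4.95 to 5.19 (5 markers, 1 of 3 tested called higher, with CDH5 at 0). The part of these shifts in the results below was not tested. In bulk RNA, fewer cells of a kind and less RNA per cell cannot be told apart.

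Of the 7 genes, NCOA3 was higher and NCOR1 was lower in the HOXD13 libraries, and the other 5 did not pass the test. Both changes were small. NCOA3 was 1.19-fold higher, and NCOR1 fell by 9.33%. The test was edgeR's quasi-likelihood test across 14112 genes, with a gene called when its p, adjusted by Benjamini and Hochberg's method, was under 0.05. All 7 genes had enough counts to be tested. The called count of 2 of 7 stands beside a background of 16.0% of all tested genes (7.91% higher and 8.11% lower), a share that would give about 1 gene in 7. In CPM (counts scaled to library size) the EV and OE libraries did not overlap for 5 of the 7 genes, beside 55.0% of all tested genes. The median absolute log2 fold change was 0.07 over these genes and 0.14 over all tested genes.

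HOXD13 is itself a DNA-binding protein, so the stretches upstream of the genes that were called are shown, together with that of FOXA1, the most abundant gene of the set. Each is the 250 bases before the first RefSeq start of the gene in the GRCh38.p14 table, read 5′ to 3′ on the gene's strand: FOXA1 at chr14:37595250-37595499 on the minus strand, NCOA3 at chr20:47501637-47501886 on the plus strand and NCOR1 at chr17:16215535-16215784 on the minus strand. Capitals mark a match to a searched motif.
FOXA1: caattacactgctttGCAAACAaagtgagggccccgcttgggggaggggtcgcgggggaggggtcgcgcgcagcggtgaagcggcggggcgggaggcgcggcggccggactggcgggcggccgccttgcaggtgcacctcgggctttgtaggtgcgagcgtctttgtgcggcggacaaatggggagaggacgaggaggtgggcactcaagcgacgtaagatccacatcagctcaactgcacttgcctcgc
NCOA3: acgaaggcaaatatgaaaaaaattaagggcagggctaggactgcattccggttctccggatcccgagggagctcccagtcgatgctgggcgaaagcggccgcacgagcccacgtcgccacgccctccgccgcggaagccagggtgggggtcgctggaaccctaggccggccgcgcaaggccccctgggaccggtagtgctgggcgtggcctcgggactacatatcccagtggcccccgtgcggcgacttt
NCOR1: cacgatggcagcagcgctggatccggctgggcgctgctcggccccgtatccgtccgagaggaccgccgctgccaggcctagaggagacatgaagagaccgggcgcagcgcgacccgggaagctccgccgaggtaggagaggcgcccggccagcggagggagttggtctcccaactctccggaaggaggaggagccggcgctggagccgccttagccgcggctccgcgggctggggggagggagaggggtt
Searched on both strands were CAATAAA, a sequence that HOX proteins of paralogue group 13 bind, the forkhead motif TGTTTNC and the GATA motif AGATAA. The HOX motif had no match in these 3 windows, and 3.67% of all 35116 promoter windows of that length hold one. FOXA1 carries 1 forkhead match, 235 bases before the start and on the opposite strand, of a kind that 15.5% of windows hold. NCOA3 and NCOR1 had no match to any of the motifs in the windows shown. A further NCOR1 start in the table has a forkhead match 157 bases upstream, in a window with only 23.6% G and C. The 3 windows shown are rich in G and C, at 67.2% for FOXA1, 66.4% for NCOA3 and 72.4% for NCOR1. No match means only that these letters are not in these windows.

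The 7 genes spanned a wide range of levels, and their order was the same in both groups. By mean FPKM, which compares genes per length, FOXA1 was highest, followed by GATA2, NCOR1, GRHL2, NCOA1, NCOA2 and NCOA3. Averaged over the 4 libraries, FOXA1 was at 136 FPKM and ranked 440 of 19205 genes, while NCOA3 was at 5.79 FPKM and ranked 9358. No library of a gene overlapped with those of its neighbour in the order within either group. The closest neighbours were NCOR1 and GRHL2 in the OE libraries, at a ratio of 1.09, and NCOA1 and NCOA2 there, at 1.11. A step of 2.59-fold in EV and 2.25-fold in OE set NCOA2 above NCOA3.

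**Figure D1:**
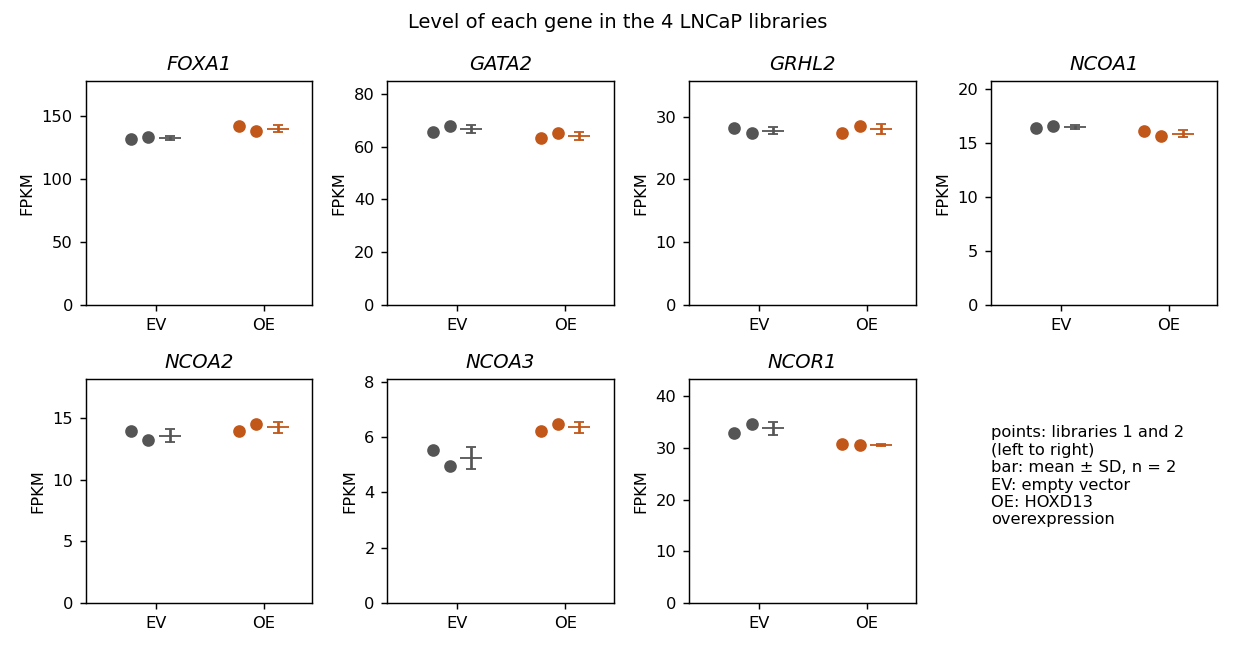
FPKM of the 7 genes in each library, with 1 panel per gene, a vertical axis in FPKM that starts at 0, points for libraries 1 and 2 of each group and the mean ± SD (n = 2) beside them. NCOA3 sits at 4.96 to 5.52 FPKM in EV and 6.20 to 6.48 in OE, and NCOR1 at 32.9 to 34.7 in EV and 30.5 to 30.7 in OE.

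Among the 3 pioneer factors, 0 were called by edgeR, by the DESeq2 Wald test or by limma on log2(FPKM + 1), and 0 had an unadjusted p under 0.05 in these tests. FOXA1 was at 131 and 133 FPKM in EV libraries 1 and 2 and at 142 and 138 FPKM in OE libraries 1 and 2. Both OE libraries lay above both EV libraries, at 132 ± 1.49 FPKM in EV and 140 ± 2.98 FPKM in OE (SD, n = 2). Its log2 fold change of 0.07 (SE 0.0343) did not pass (edgeR adjusted p = 0.207). The 95% interval of the fold ran from 0.997 to 1.1, so a rise of up to 9.90% lies within it.

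GATA2 was at 65.5 and 67.9 FPKM in EV and at 63.1 and 65.3 FPKM in OE. The FPKM ranges almost touched, and in CPM the OE libraries, at 217 and 224, lay below the EV libraries, at 226 and 236. The log2 fold change was -0.07 (SE 0.0434, edgeR adjusted p = 0.319), with a 95% interval from -10.3% to 1.38%. Leaving out a library took that log2 fold change from -0.11 (without EV library 1) to -0.04 (without EV library 2), with no call. GRHL2, which holds epithelial cells in their junction-forming state, was the flattest gene of the set. It was at 28.2 and 27.3 FPKM in EV and at 27.4 and 28.5 FPKM in OE, and the groups overlapped. Its log2 fold change was -0.0035 (SE 0.0502, edgeR adjusted p = 0.977), within -7.07% to 7.08%.

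FOXA1 and GATA2 are in the range of expression where calls were most frequent. Of the 1412 tested genes in the highest of 10 bins of mean FPKM, 50.9% were called, at a median standard error of 0.0455 on the log2 scale. NCOR1 lies in bin 9, where 28.8% of 1411 genes were called, and GRHL2 in bin 8, where 21.4% were. For NCOA3, in bin 4, the share was 7.01%. The median log2 fold change of all tested genes was -0.09 in bin 10, the highest, -0.06 in bin 9, -0.03 in bin 8 and 0.04 in bin 4. The ratio of FOXA1 to GATA2 FPKM was 2.0 and 1.97 in EV and 2.25 and 2.11 in OE, with no overlap. FOXA1 over GRHL2 overlapped between the groups (4.66 and 4.88 in EV, 5.18 and 4.83 in OE). GATA2 over GRHL2 did not (2.33 and 2.48 in EV, 2.30 and 2.29 in OE). In CPM, 55.0% of all tested genes did not overlap, and no such share was computed for ratios. With 2 libraries on each side an exact permutation test gives p = 0.33 at the least, so the ratios here are descriptions.

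**Figure D2:**
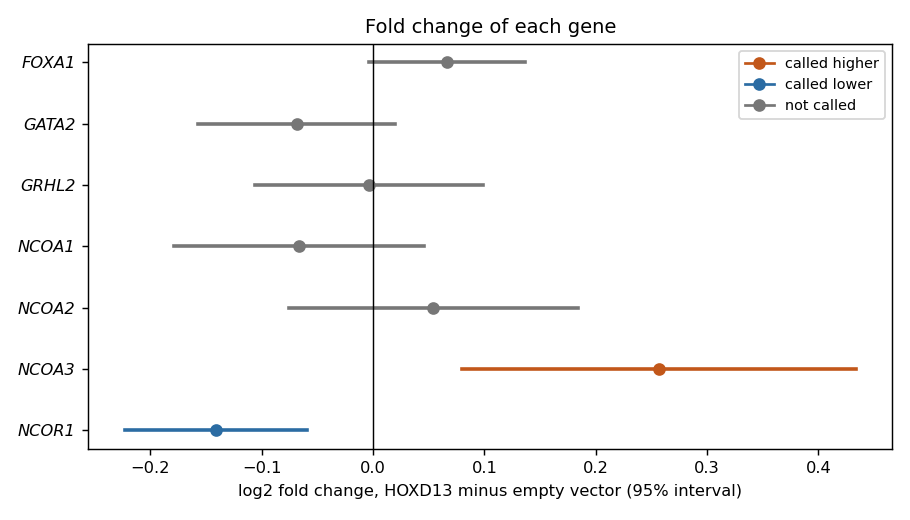
Log2 fold change (horizontal axis, HOXD13 minus empty vector) of the 7 genes, with points for the edgeR estimate and bars for its 95% interval. NCOA3 at 0.26 and NCOR1 at -0.14 were called, and the bars of the other 5 genes cross 0.

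Of the p160 coactivator genes, NCOA3 alone was called, and it is the least abundant. NCOA3 was at 5.52 and 4.96 FPKM in EV libraries 1 and 2, from 342 and 276 expected counts. In OE libraries 1 and 2 it was at 6.20 and 6.48 FPKM, from 428 and 436 expected counts. Both OE libraries were above both EV libraries, as were 27.7% of all tested genes in CPM. The log2 fold change was 0.26 (SE 0.0868, edgeR adjusted p = 0.0397), with a 95% interval of the fold from 1.06 to 1.35. The call was lost without EV library 2, the lowest one (adjusted p = 0.304, log2 fold change 0.18), without OE library 2 (0.163) and once trends with expression and length were removed (0.109). Its adjusted p ranged from 0.0257 to 0.304 over 12 alternatives, of which 6 kept the call. RSEM gave NCOA3 fractional counts in the OE libraries, which happens when reads are divided with another gene. The fraction does not tell how many reads were divided, so the uncertainty it leaves in the value is not known. Fractional counts were also given to NCOR1 and, among the partner genes below, to TLE3, HDAC2, TBL1X, EP300, PIAS2, SPOP, CDH1, CLDN3 and CLDN4.

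NCOA1 was at 16.3 and 16.6 FPKM in EV and at 16.1 and 15.6 FPKM in OE, with both OE libraries lower. This was a log2 fold change of -0.07 (SE 0.0550, edgeR adjusted p = 0.480), within -11.6% to 3.22%. NCOA2 was at 14.0 and 13.2 FPKM in EV and at 14.0 and 14.6 FPKM in OE, and the groups overlapped. Its log2 fold change was 0.05 (SE 0.0637, edgeR adjusted p = 0.643), within -5.12% to 13.6%. That value was 0.09 without EV library 1 or OE library 1, and 0.02 without EV library 2 or OE library 2, and none of these was called.

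The make-up of the p160 family differed by a few percentage points between the groups. The summed level of the 3 genes was 35.8 and 34.8 FPKM in EV and 36.2 and 36.7 FPKM in OE. NCOA3 made up 15.4% and 14.3% of that sum in EV and 17.1% and 17.7% in OE. The NCOA1 share was 45.6% and 47.7% in EV and 44.4% and 42.6% in OE, and that of NCOA2 was 38.0% to 39.7% in all libraries. NCOA1 stayed the most abundant of the family in each library, and NCOA3 the least abundant.

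NCOR1 was the more precisely measured of the called genes, with 2178 to 2456 expected counts per library. It was at 32.9 and 34.7 FPKM in EV, from 2312 and 2178 expected counts, and at 30.7 and 30.5 FPKM in OE, from 2456 and 2316. Both OE libraries lay below both EV libraries, as was the case for 27.2% of all tested genes in CPM. The log2 fold change was -0.14 (SE 0.0401, edgeR adjusted p = 0.0132), with a 95% interval from -14.3% to -4.04%. Without EV library 2, the highest one, the log2 fold change was -0.11 and the call was lost (adjusted p = 0.217). Without OE library 2 it was lost too (0.0518), and the adjusted p of 12 alternatives ranged from 0.00431 to 0.217, with 8 that kept the call.

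NCOR1 has a pseudogene in the table, NCOR1P1, and the reads of this pair could be divided either way. NCOR1P1 had 3.27 and 3.24 expected counts in EV and 1.06 and 1.16 in OE, too few to be tested. That was 0.0432% to 0.149% of the NCOR1 counts. With the counts of both summed, the log2 fold change stayed at -0.14 (edgeR adjusted p = 0.0123). The mean transcript length that RSEM assigned to NCOR1 was 9275 bases in OE library 1 and 9004 to 9046 in the other libraries, which enters the FPKM and not the count test.

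Set against NCOR1, each p160 gene was relatively higher in the HOXD13 libraries. The NCOA3 to NCOR1 ratio of FPKM was 0.168 and 0.143 in EV and 0.202 and 0.213 in OE. For NCOA2 the ratio was 0.423 and 0.381 in EV and 0.455 and 0.478 in OE, and for NCOA1 it was 0.496 and 0.478 in EV and 0.524 and 0.513 in OE. None of these ratios overlapped between groups. In CPM, 55.0% of all tested genes did not overlap either, and no such share was computed for ratios. The longer NCOR1 transcript length in OE library 1 (9275 bases) lowers its FPKM there and raises these ratios. All share NCOR1 as the denominator, so they are not separate observations.

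**Figure D3:**
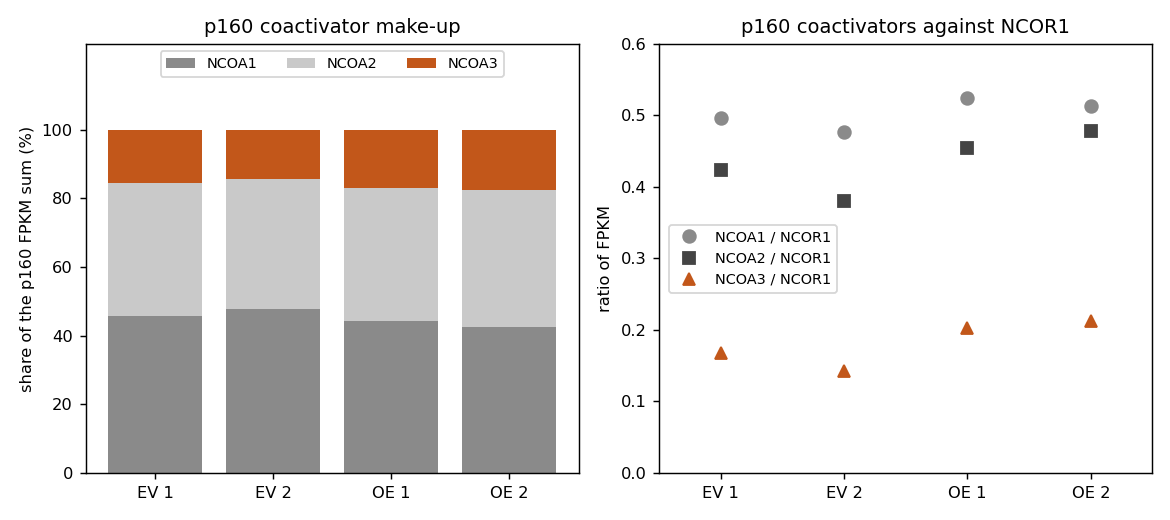
Left, the share of NCOA1, NCOA2 and NCOA3 in their summed FPKM (vertical axis, percent) in each library; right, the FPKM ratio of each to NCOR1. NCOA3 takes 14.3% to 15.4% of the sum in EV and 17.1% to 17.7% in OE, and its ratio to NCOR1 goes from 0.143 to 0.168 in EV to 0.202 to 0.213 in OE.

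Among the other core subunits of the NCOR1 complex, TBL1XR1, its exchange factor, rose from 59.8 ± 0.665 to 69.0 ± 4.16 FPKM (log2 fold change 0.19, edgeR adjusted p = 0.000551). HDAC3, the catalytic subunit, had a log2 fold change of -0.10 (adjusted p = 0.373), TBL1X one of 0.06 (0.529) and GPS2 one of -0.20 (0.381). HDAC3, TBL1X and GPS2 were named after their values were seen.

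Around these subunits, the corepressor list held 21 genes, all tested, of which 1 was higher, 2 were lower and 18 were not called. So 14.3% were called, beside 16.0% of all tested genes. The deacetylase genes HDAC1 (from 95.6 ± 2.66 to 87.2 ± 1.74 FPKM, log2 fold change -0.15) and HDAC2 (from 26.8 ± 0.502 to 23.9 ± 0.516 FPKM, -0.18) were the ones that fell, with edgeR adjusted p of 0.0243 and 0.00813. The HDAC1 call was lost without EV library 2 (0.234), without OE library 1 (0.122) and with the trends removed (0.197), and the HDAC2 call without EV library 1 (0.10). The median log2 fold change was -0.02 over the list and 0.0038 over all tested genes.

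Genes listed as p160 partners and other coactivators were lower where they were called. Of 24 listed genes 23 were tested, of which 6 fell, 0 rose and 17 were not called. Their median log2 fold change was -0.09, with 26.1% called beside 16.0% of all tested genes. In the 4 highest bins of mean FPKM, which hold the 6 called genes, 15.3% to 50.9% of all tested genes were called, with bin medians from -0.01 to -0.09. At an unadjusted p under 0.05 the edgeR test gave 8 lower and 0 higher, and 3 were called lower by the DESeq2 Wald test and 2 by limma on log2(FPKM + 1). TRIM28, a chromatin cofactor, fell from 200 ± 6.37 FPKM in EV to 168 ± 0.156 FPKM in OE, a log2 fold change of -0.27 (edgeR adjusted p = 5.26e-07). The arginine methyltransferase gene PRMT1 went down from 137 ± 1.54 to 117 ± 2.69 FPKM, a log2 fold change of -0.25 (adjusted p = 0.000264). SMARCE1, a subunit of the SWI/SNF remodeller (-0.17, adjusted p = 0.0113), and the histone methyltransferase gene NSD1 (-0.16, 0.0122) fell as well. So did the remodeller ATPase SMARCA4 (-0.14, 0.0158) and the scaffold PELP1 (-0.14, 0.0372), named after their values were seen.

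The TRIM28 and PRMT1 calls held without any 1 library. The SMARCE1 call was lost without EV library 1 (adjusted p = 0.197) and with trends in expression and length removed (0.0649), the NSD1 call without EV library 2 (0.0713) or OE library 2 (0.188; log2 fold change -0.10), the SMARCA4 call without EV library 1 (0.111), EV library 2 (0.0764) or OE library 2 (0.0679), and the PELP1 call without EV library 1 (0.225), EV library 2 (0.108) or OE library 1 (0.144) or with the trends removed (0.0756). The acetyltransferase genes that p160 proteins recruit were not called. CREBBP had a log2 fold change of -0.01 (95% interval -0.12 to 0.10, edgeR adjusted p = 0.927) and EP300 one of -0.13 (-0.22 to -0.03, 0.0524), both named after their values were seen. Mediator, the complex that links enhancers to RNA polymerase II, had 32 tested subunits and 0 calls by edgeR, the DESeq2 Wald test or limma on log2(FPKM + 1). With 16.0% of all tested genes called in edgeR, Mediator had 1 higher and 4 lower there at an unadjusted p under 0.05. It had 1 lower call in edgeR with no low-count filter, and likewise without EV library 2, OE library 1 or OE library 2. The Mediator gene with the smallest p, MED22, was at 16.8 ± 0.255 and 14.8 ± 0.785 FPKM (adjusted p = 0.0516; 0.0372 with no low-count filter and 0.0162 without OE library 2), followed by MED16 at 32.5 ± 0.191 and 29.6 ± 1.03 FPKM (0.103).

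Genes for coregulators associated with the receptors went both ways. Of 20 listed, 18 were tested, of which 2 rose, 2 fell and 14 were not called. Their median log2 fold change was -0.0032, with 22.2% called beside 16.0% of all tested genes. The SUMO ligase gene PIAS2 rose from 11.9 ± 0.559 to 15.1 ± 0.0141 FPKM (log2 fold change 0.33, edgeR adjusted p = 0.00193), and the call was lost without EV library 1 (0.0525). PMEPA1, whose product limits androgen receptor levels, rose from 42.8 ± 0.856 to 54.6 ± 1.29 FPKM (0.33, adjusted p = 9.95e-07). GNB2L1, the scaffold RACK1, fell from 1044 ± 3.73 to 939 ± 14.4 FPKM (-0.17, adjusted p = 7.87e-05), and its log2 fold change was -0.10 with the trends removed, still called (0.00620). The RNA-binding protein gene SFPQ fell from 175 ± 2.37 to 165 ± 8.38 FPKM (-0.10, 0.0409), a call lost without EV library 1 (0.0786), EV library 2 (0.232) or OE library 2 (0.331, log2 fold change -0.06) and with the trends removed (0.0879).

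Relatives and partners of the pioneer factors were mostly low or not called. Counts sufficed for a test of 10 of the 19 listed genes, with 10% called beside 16.0% of all tested genes. The 1 called gene was the corepressor TLE3, which binds forkhead proteins. It went from 37.5 ± 0.0141 to 41.3 ± 0.643 FPKM (log2 fold change 0.12, edgeR adjusted p = 0.0469), and leaving out EV library 1 (0.247), EV library 2 (0.194), OE library 1 (0.15) or OE library 2 (0.0558) ended the call. Of 16 tested transcription factors that share enhancers with them, 2 rose, 1 fell and 13 were not called. That is 18.8% called, beside 16.0% of all tested genes. The ETS factor gene ETV1 rose from 30.9 ± 0.488 to 35.4 ± 1.96 FPKM (0.19, adjusted p = 0.00396), and XBP1, of the unfolded protein response, from 98.9 ± 2.79 to 109 ± 1.17 FPKM (0.13, 0.0483). HOXB13, the prostate HOX factor, fell by 0.11 on the log2 scale (0.0353). The ETV1 call was lost without EV library 1 (0.0616) or OE library 1 (0.0992; log2 fold change 0.12). The HOXB13 call was lost without either EV library (0.311 and 0.0701) and with the trends removed (0.13), and the XBP1 call without EV library 1 (0.418), EV library 2 (0.0898), OE library 1 (0.0560) or OE library 2 (0.153).

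Other nuclear receptors that draw on the same coregulators gave 0 calls among 25 tested genes in edgeR, beside 16.0% of all tested genes. They also gave 0 with the DESeq2 Wald test or limma on log2(FPKM + 1). At an unadjusted p under 0.05 the edgeR test gave 1 higher and 5 lower, and the median log2 fold change was -0.09. The smallest p belonged to the orphan receptor genes ESRRA (42.4 ± 1.92 and 38.1 ± 1.00 FPKM, adjusted p = 0.0658) and NR2F2 (12.6 ± 0.721 and 11.2 ± 1.7 FPKM, adjusted p = 0.0710). NR2F2 was called lower in edgeR with no low-count filter (0.0426) and without OE library 1 (0.00689, log2 fold change -0.34), and had a log2 fold change of -0.11 without OE library 2. Leaving out OE library 2 gave 1 receptor gene called higher. Among 10 tested genes of ubiquitin-dependent turnover, 2 fell and 8 were not called (20% called, beside 16.0% of all tested genes). CUL3, the cullin of the ligase that removes NCOA3 through SPOP, fell from 11.2 ± 0.523 to 9.48 ± 0.127 FPKM (log2 fold change -0.25, edgeR adjusted p = 0.0105), and the call was lost without EV library 1 (0.146). The ligase gene HUWE1 fell from 51.2 ± 1.45 to 46.2 ± 2.0 FPKM (-0.16, adjusted p = 0.000790). SPOP itself was at 19.8 ± 0.658 and 19.6 ± 1.02 FPKM (adjusted p = 0.857), and is named with its values known.

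Among genes linked to GRHL2, most of them epithelial, the called changes were rises. The list also holds ZEB1, tested and not called, and ZEB2, for which no value was given, and these are not epithelial genes. Of 14 listed genes 13 were tested, of which 6 rose, 0 fell and 7 were not called. Their median log2 fold change was 0.22, with 46.2% called beside 16.0% of all tested genes. Both the DESeq2 Wald test and limma on log2(FPKM + 1) also called 6 higher and 0 lower, and an unadjusted p under 0.05 in edgeR was reached by 8 higher and 1 lower. The claudin genes CLDN4 (from 108 ± 0.622 to 149 ± 1.53 FPKM, edgeR adjusted p = 1.48e-09) and CLDN3 (from 54.1 ± 1.39 to 68.5 ± 2.18 FPKM, 0.000656) were among them. EPCAM, the adhesion molecule gene, rose by a log2 fold change of 0.32, PRSS8, a membrane serine protease gene, by 0.31, SPINT1, an inhibitor of such proteases, by 0.23 and CDH1, the E-cadherin gene, by 0.22. SPINT1 and CDH1 were named after their values were seen. These 6 genes have group means of 49.5 FPKM or more, where calls were frequent, and the list was written with the rise of junction genes in these data known, so its direction is not independent evidence.

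**Figure D4:**
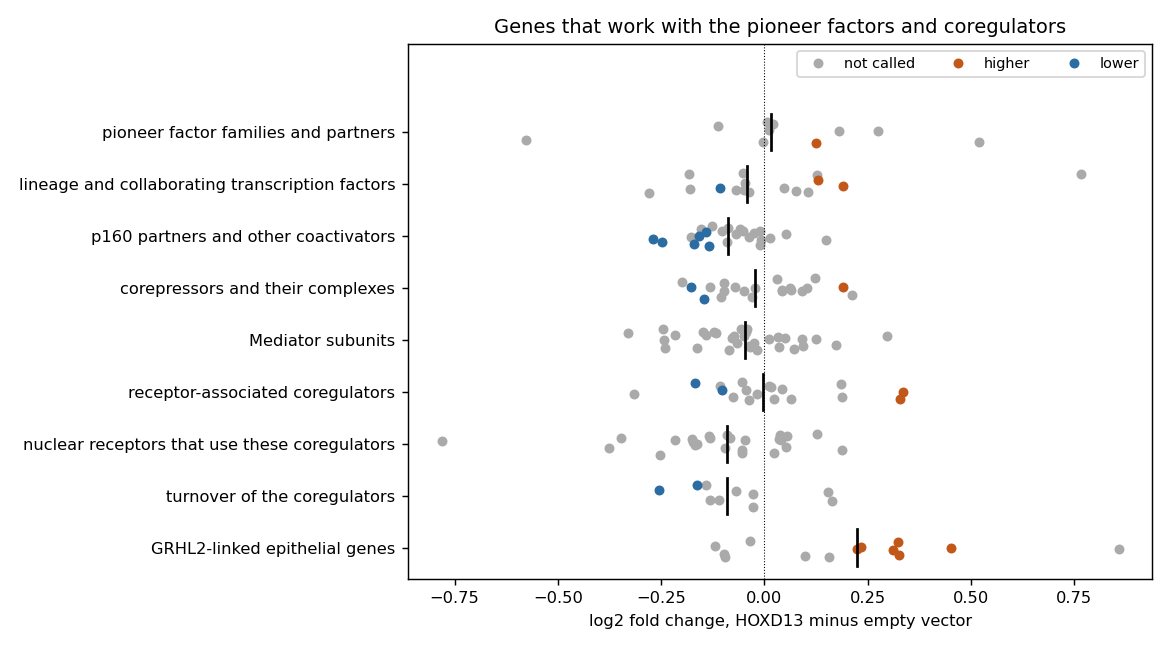
Log2 fold change (horizontal axis) of each tested gene in 9 lists of partner genes, 1 point per gene, coloured by the edgeR call, with a black bar at each list's median and random vertical spread. The 6 called genes of the coactivator list lie below 0 and the 6 called epithelial genes above it, and the Mediator and nuclear receptor lists hold no coloured point.

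Over all lists together, each gene counted once, 12 of 168 tested genes were higher, 13 were lower and 143 were not called. That is 14.9%, beside 16.0% over all tested genes. Of these 25 called genes, 9 were not called by the DESeq2 Wald test: CUL3 (adjusted p = 0.0745), HDAC1, HOXB13, PELP1, SFPQ, SMARCA4, SMARCE1 (0.0635), TLE3 and XBP1. The same 9 were not called by limma with a pseudocount of 1 on FPKM (CUL3 at 0.16), nor were ETV1, HDAC2, HUWE1 (0.165), NSD1, PIAS2 and TBL1XR1 (0.0923). The XBP1 call was also lost with DESeq2 size factors in edgeR (0.0501), and that of SFPQ at a mean of at least 50 counts (0.0515).

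Across 4 libraries, a few genes followed the called members most closely. Likeness was the root mean square difference in log2 CPM, centred for each gene over the 4 libraries, among 9709 other genes averaging 5 FPKM or more. For NCOA3 the nearest were XRCC6BP1 (0.00480), the fatty acid transport gene SLC27A2 (0.00656) and DNAJB11, a co-chaperone of the endoplasmic reticulum (0.0115). For NCOR1 they included GTF3C6, a subunit of a polymerase III initiation factor (0.00370), and the cohesin gene SMC1A (0.00529). With so many candidates and 4 values for each, close matches are common, and nothing is read from them.

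**Figure D5:**
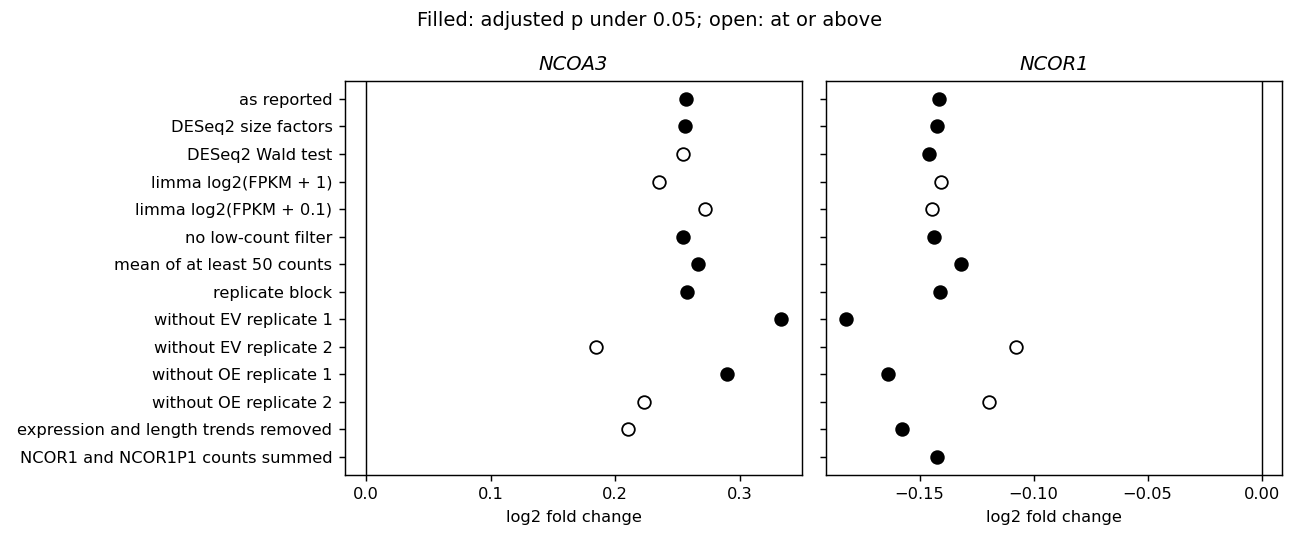
Log2 fold change (horizontal axis) of NCOA3 and NCOR1 as reported and under each alternative (vertical axis), filled where the adjusted p was under 0.05. NCOA3 stays between 0.18 and 0.33 and NCOR1 between -0.18 and -0.11, with open points for both without EV replicate 2, without OE replicate 2 and with limma on FPKM.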

How the data were processed

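Reads were processed with Bowtie2 and RSEM, and the builds hg18 and hg19 are named without a role, per the submitters' processing notes. The deposited library tables hold RSEM expected counts, mean transcript lengths and FPKM for each RefSeq gene, per the file headers. The series table of FPKM, per the file headers, equals those of the 4 library tables. A gene missing from a library was set to 0.

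Expected counts were rounded and tested in R 4.3.3 with edgeR 4.0.16 (robust quasi-likelihood fit, TMM, filterByExpr), which kept 14112 genes. The standard error is the absolute log2 fold change over the square root of F. FPKM are printed as deposited. CPM, log2 values and ratios were computed here, from the deposited counts and FPKM. limma 3.58.1, DESeq2 1.42.0 and smooth trends (mgcv 1.9.3) served as alternatives. The members, the 9 lists and the tests were chosen with earlier results of these data known. Named genes are the members, HOXD13, the largest changes among a list's called genes (up to 4) or, with none called, its smallest p (up to 2), and the 3 nearest genes to each called member. A few items are not reported here.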

Additional observations from a re-analysis of the deposited data

How the results depend on the processing

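Precision here rests on 2 libraries a group and on 276 to 4136 expected counts per gene and library. As reported, 1 of the 7 genes was higher and 1 lower. The count of higher genes was 0 with the DESeq2 Wald test and with expression and length trends removed, and both counts were 0 with limma on log2(FPKM + 1) or log2(FPKM + 0.1) and at an adjusted p under 0.01. Leaving out each library, with the lone library of its group assumed to vary like the other group, gave 0 to 1 higher and 0 to 1 lower. At an unadjusted p under 0.05 the DESeq2 Wald test and limma each gave 0 higher and 1 lower. In the DESeq2 Wald test NCOR1 remained called (adjusted p = 0.0446) and NCOA3 did not (0.186). Limma on log2(FPKM + 1) gave adjusted p of 0.222 for NCOA3 and 0.182 for NCOR1. The cause of these losses was not tested. The sign of GRHL2 turned, at 0.012 with both FPKM settings, 0.0058 at a mean of at least 50 counts and, with a library left out, -0.036 to 0.028 (0.013 without EV library 1 and 0.028 without OE library 1). The signs of the other 6 genes were kept under the same 12 alternatives, and that of NCOR1 also with NCOR1P1 added, a setting chosen after seeing the data.

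Over all genes, the 1116 higher and 1144 lower calls became 473 and 578 with the DESeq2 Wald test, 398 and 261 with log2(FPKM + 1), 382 and 265 with log2(FPKM + 0.1), and 647 and 633 at an adjusted p under 0.01. Leaving out a library gave 751 to 927 higher and 714 to 1064 lower. Of the list genes, 12 higher and 13 lower as reported, 6 were lower with the DESeq2 Wald test, 7 were higher and 3 lower with either FPKM setting, and 5 lower at an adjusted p under 0.01; without a library the counts were 9 to 12 higher and 7 to 15 lower. Nothing in the labels says whether same-numbered libraries were paired. Deviations from group means correlated at 0.0703 between EV 1 and OE 1, which cannot exclude pairing, since these deviations hold sampling noise. With the replicate number as a block, the members' counts stayed at 1 higher and 1 lower (NCOA3 adjusted p = 0.0322, NCOR1 0.00755), all genes gave 1226 higher and 1297 lower, and the list genes 13 higher and 18 lower. Lists that moved by over 1.5 times with the block were the corepressors (2 higher), Mediator (1 lower, MED22 at 0.0349) and the nuclear receptors (2 lower, ESRRA at 0.0496 and NR2F2 at 0.0437).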
